A study of Arabidopsis thaliana with 11 samples.

Results

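Late meristemoids and young guard mother cells of the Arabidopsis leaf were compared with cells sorted as whole epidermis, gene by gene. Of the 33602 genes in the deposited table of log2 expression values, the 28048 that reached log2 of 10, rounded to 2 decimals, in 2 or more of the 4 libraries of these groups were taken. The study sorted protoplasts from 5 marker lines that follow the stomatal lineage from its first cells to mature guard cells, in 11 libraries. The question set here was which transcripts set the MUTE-stage sort apart from cells sorted with an epidermal promoter.

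The MUTE-stage group (MG) carries MUTEp::nucGFP, a nuclear GFP under the MUTE promoter, in Columbia (Col), and had 2 libraries. The epidermis group (ML1Y) carries ML1p::YFP-RCI2A, a membrane-bound YFP under the promoter of the epidermal gene ML1, also in Col, and had 2 libraries. Both groups are therefore reporter lines and neither is an untransformed plant, and each promoter sets which cells were sorted. Aerial tissue of 10-day-old seedlings grown at 25 °C under 16 h of light and 8 h of dark was digested for 2 h, and fluorescent protoplasts were sorted into extraction buffer. Each replicate held 4000 to 20000 cells, and about 10 ng of total RNA went through oligo-dT beads and isothermal (SPIA) amplification. The labels do not say whether replicates came from separate sowings, so p-values measure only the spread between these libraries. The 3 other lines, used only where a gene's level at the MUTE stage is set beside other stages, are SPCHp::SPCH-YFP (SSY, early precursors, n = 3), FAMAp::GFP-FAMA (FGF, late precursors, n = 2) and the enhancer trap E1728::GFP (E1728G, mature stomata, n = 2), at the same age.

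In the stomatal lineage, basic helix-loop-helix factors act in sequence. SPEECHLESS starts the asymmetric divisions, MUTE ends them and turns the meristemoid into a guard mother cell, and FAMA directs guard cell fate. Each has ICE1 or SCRM2 as partner. Neighbouring cells are kept from taking the same fate by secreted peptides of the EPF family, read by ERECTA-family receptor kinases together with the receptor-like protein TMM.

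At an adjusted p of 0.05 in the limma fit, 56 of the 28048 genes were higher in MG (0.2%) and 426 were lower (1.52%), together 1.72%. The 4 libraries of all 482 called genes did not overlap between groups, which was so for 44.7% of the genes in general. Higher genes differed by a median of 3.26 on the log2 scale (1.80 to 4.81) and lower genes by -3.19 (-7.29 to -1.98), while the median of all 28048 was 0.03. Median levels were 8.76 in MG and 5.42 in ML1Y for the higher genes, and 5.21 in MG and 8.37 in ML1Y for the lower genes. The classes that follow use the ML1Y level, which is 1 side of the difference. They therefore cannot show whether the directions drew on different levels of expression. When the genes were divided into 4 classes of equal size by their ML1Y level, the lower calls numbered 1, 16, 99 and 310 from the lowest to the highest class, and the higher calls 13, 20, 19 and 4. Unadjusted p-values under 0.05 were reached by 1147 higher and 2011 lower genes. Of all 28048 genes, 14512 had a difference above 0, which is the share to set beside counts above 0 in the lists below.

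**Figure D1:**
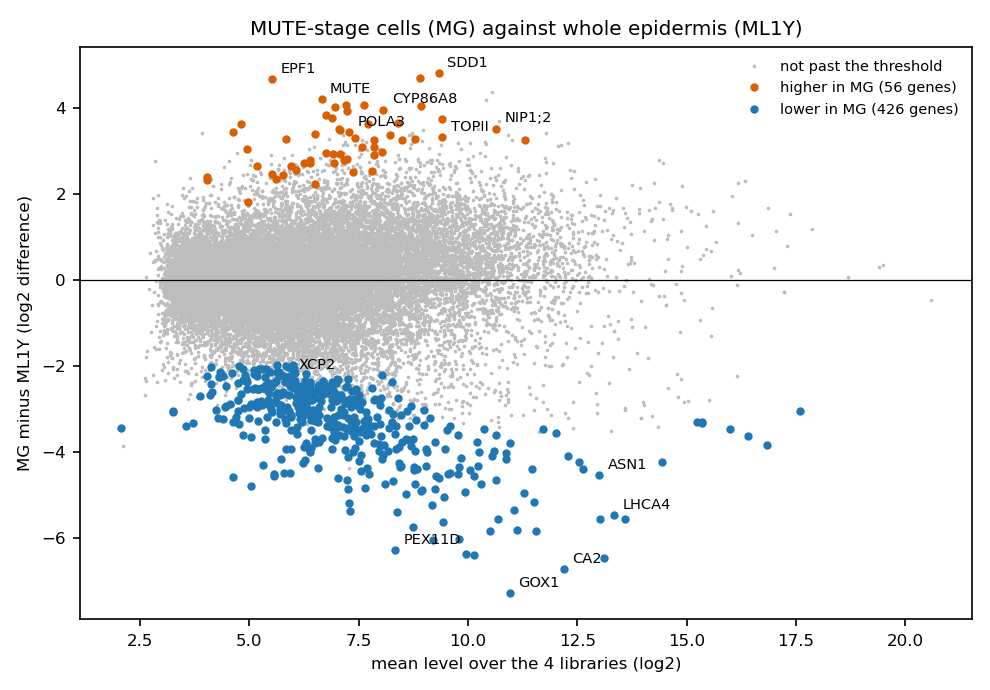
Each point is 1 of the 28048 genes, with its mean level over the 4 libraries (log2) on the x axis and the MG minus ML1Y log2 difference on the y axis. The 56 higher genes (orange) reach a difference of 4.81. The 426 lower genes (blue) extend to higher levels than the orange ones and down to -7.29.

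The MG libraries varied more between themselves than the ML1Y libraries did. Replicates differed by a median of 0.62 log2 units in MG and 0.36 in ML1Y, and by more than 2 units in 6.48% and 0.874% of the genes. Across genes, the Spearman correlation was 0.89 between the MG libraries, 0.95 between the ML1Y libraries and 0.90 between MG replicate 1 and ML1Y replicate 1, so MG replicate 1 was ranked slightly closer to an ML1Y library than to its own replicate. Because the model pools the variance of all 5 groups, the standard errors given for MG do not carry its own wider scatter. Calls often rested on all 4 libraries: 1 higher and 27 lower genes stayed called whichever library was left out. With a single library left out, 1 to 34 of the 56 higher genes and 35 to 253 of the 426 lower genes were still called, and the refitted totals, new calls included, ran from 1 to 302 higher and from 35 to 321 lower genes. Read depth is unknown, because the files hold normalized values.

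MUTE rose in MG, as did 2 genes of secreted signalling, while the factors of the stages before and after it did not pass. MUTE (AT3G06120), the gene whose promoter marks the line, stood at 4.88 and 4.21 in the ML1Y libraries and 7.65 and 9.86 in the MG libraries. Both MG libraries lay above both ML1Y libraries, an 18.5-fold difference (log2 difference 4.21 ± 0.64, adjusted p = 0.00467). The call was lost without MG replicate 2 (3.11, adjusted p = 0.0502) and without ML1Y replicate 2 (3.88, adjusted p = 0.0863). The reporter holds the MUTE promoter and a nuclear GFP and, by its name, no MUTE coding sequence.

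The stage factors held 10 members, 1 of which passed, and 8 were above 0 with a median log2 difference of 1.60. SPCH, the starter of the lineage, read 6.36 and 5.92 in the ML1Y libraries and 7.12 and 5.55 in the MG libraries, and its groups overlapped (log2 difference 0.20 ± 0.68, adjusted p = 1). FAMA read 8.88 and 8.30 in the ML1Y libraries and 10.60 and 9.82 in the MG libraries, with no overlap but a difference that did not pass (log2 difference 1.62 ± 0.82, adjusted p = 0.527). Across the 5 groups, SPCH had its lowest mean in SSY (5.58) and its highest in FGF (7.47). FAMA averaged 11.55 in SSY, 14.47 in FGF and 11.24 in E1728G. The stage names follow the marker lines and not these levels. Of the partner factors, ICE1 had the most even MG replicates of the list. It stood at 12.23 and 12.66 in MG against 10.10 and 9.98 in ML1Y (adjusted p = 0.236) and SCRM2 at 8.78 and 10.11 in MG against 7.76 and 7.33 in ML1Y (adjusted p = 0.414). HDG2, a homeodomain factor of the epidermis that promotes stomatal fate, stood at 10.16 and 10.98 in MG against 8.05 and 8.22 in ML1Y (adjusted p = 0.295). The MYB pair that limits the last division was split between libraries. FLP read 9.18 and 7.30 in MG against 6.43 and 6.87 in ML1Y and MYB88 6.17 and 5.16 in MG against 6.35 and 6.50 in ML1Y, neither passing. SCAP1, a factor of guard cell maturation, and AGL16, a MADS factor reported in stomatal development, had differences of -0.66 and 0.27 and did not pass.

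Of the 10 secreted peptides and proteases, 2 rose and none fell, with a median of 0.52. EPF1 (AT2G20875), the peptide that meristemoids and guard mother cells release to keep stomata spaced, stood at 3.30 and 3.08 in the ML1Y libraries and 8.05 and 7.68 in the MG libraries. It was 25.5-fold higher in MG (log2 difference 4.67 ± 0.58, adjusted p = 0.00168), and it was the single higher gene that stayed called whichever library was left out. SDD1 (AT1G04110), a subtilisin-like protease that limits stomatal density, stood at 7.23 and 6.61 in the ML1Y libraries and 9.69 and 13.77 in the MG libraries. All MG values exceeded all ML1Y values, but MG replicate 2 lay far above MG replicate 1. It passed (log2 difference 4.81 ± 1.05, adjusted p = 0.0315), and without MG replicate 2 it was 2.77, adjusted p = 0.253. It also lost its call without ML1Y replicate 1 (5.12, adjusted p = 0.16) and without ML1Y replicate 2 (4.50, adjusted p = 0.332), in the fit of the 4 libraries alone and in that without the SSY libraries.

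The other peptides did not pass. EPF2, which acts in the earliest divisions, stood at 4.32 and 6.14 in MG against 2.87 and 2.91 in ML1Y (log2 difference 2.34 ± 0.62, adjusted p = 0.0857). STOMAGEN, made in the mesophyll as a promoter of stomatal formation, pointed the other way, with 2.58 and 3.05 in MG against 4.29 and 5.05 in ML1Y (log2 difference -1.86 ± 0.55, adjusted p = 0.131). CLE9 read 7.64 and 6.49 in MG against 4.98 and 4.84 in ML1Y (adjusted p = 0.165). SBT5.2, known as CRSP, the protease that processes EPF2, read 4.44 and 4.80 in MG against 5.70 and 6.36 in ML1Y (adjusted p = 0.177). In EPFL4, EPFL5, CHAL and CLE10 the differences were 0.77, 0.23, 0.04 and 0.27, at levels close to the filter.

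None of the 8 receptor genes passed in the fit described, and their median difference was 0.43. TMM, the receptor-like protein of the lineage, stood at 8.22 and 8.41 in the ML1Y libraries and 10.86 and 14.12 in the MG libraries. Its groups did not overlap, and the difference was 18-fold with an adjusted p just above the threshold (log2 difference 4.17 ± 1.01, adjusted p = 0.0542). TMM passed when the filter was raised to 50 (adjusted p = 0.0377), with no mean trend (0.0451), with robust variances (0.0486), with the replicate block (0.0407) and without MG replicate 1 (5.80, adjusted p = 0.0143). Without MG replicate 2 its difference was 2.54 (adjusted p = 0.434). The ERECTA-family receptors ERL2 and ERL1 read 10.85 and 9.11 in MG against 7.18 and 7.59 in ML1Y for ERL2 and 8.88 and 7.56 in MG against 6.34 and 6.61 in ML1Y for ERL1 (adjusted p = 0.123 and 0.225). ER itself overlapped between the groups (log2 difference -0.50 ± 0.65, adjusted p = 0.955). Among the SERK co-receptors, BKK1 had the widest difference, at 8.60 and 7.97 in MG against 10.12 and 10.26 in ML1Y (log2 difference -1.90 ± 0.73, adjusted p = 0.302), and BAK1, SERK1 and SERK2 lay at 0.55, 0.28 and 0.31.

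**Figure D2:**
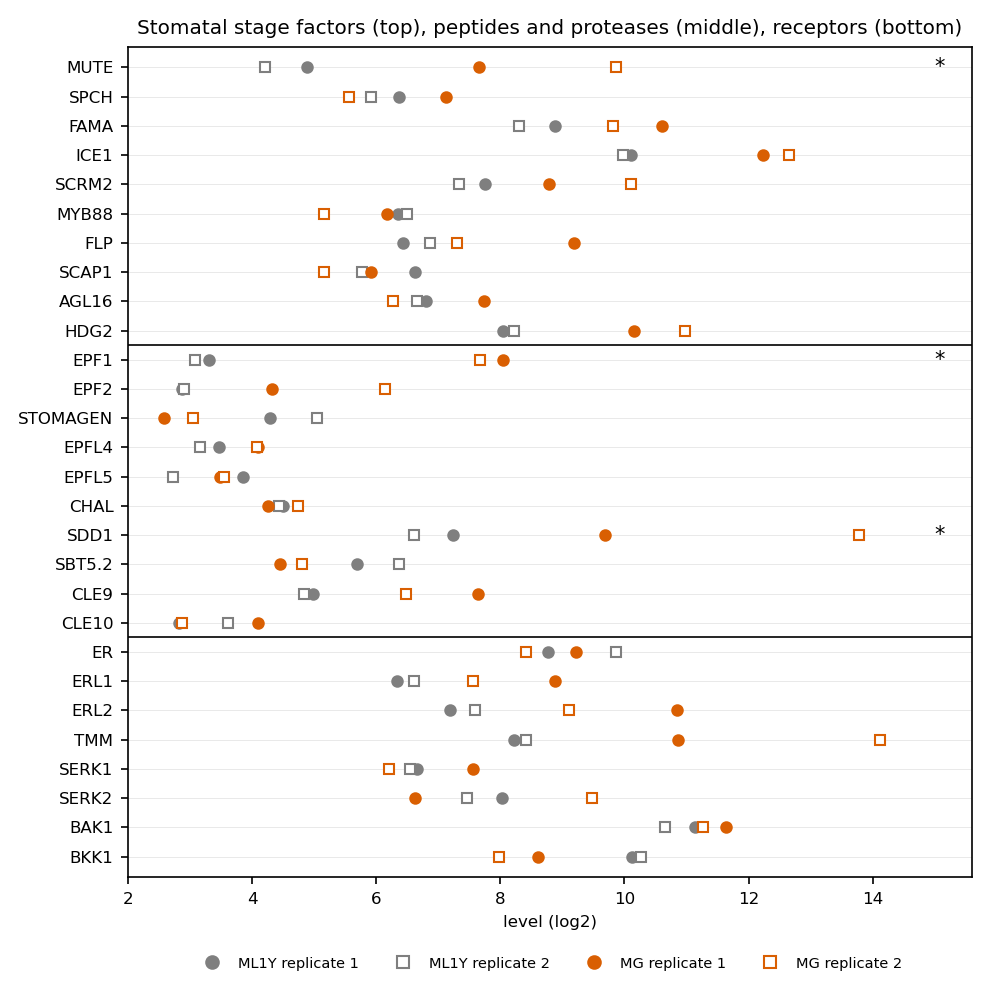
Levels (log2, x axis) of stage factors, secreted peptides and proteases, and receptors in the 4 libraries, 1 gene per row, with grey for ML1Y, orange for MG, and filled and open symbols for replicates 1 and 2. Asterisks mark the 3 called genes (MUTE, EPF1 and SDD1). In SDD1 and TMM, MG replicate 2 stands far to the right of MG replicate 1.

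Downstream and polarity genes also held no call. The 9 genes of the MAP kinase cascade, which relays the receptor signal, had a median of 0.09, and 5 of them were above 0. Of the 9 polarity genes, 8 were above 0 with a median of 0.86. POLAR, a protein of the polar domain in dividing meristemoids, read 5.53 and 5.63 in the ML1Y libraries and 9.67 and 7.75 in the MG libraries (log2 difference 3.13 ± 0.89, adjusted p = 0.113). BASL, which marks the side of the cell that will be the larger daughter, read 6.05 and 4.24 in MG against 4.79 and 4.82 in ML1Y, so that its groups overlapped (adjusted p = 0.975).

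Genes of DNA replication and division were mostly above 0 in MG, but few passed. In the replication list 16 of 19 members were above 0 with a median of 0.39, and 1 passed. That gene, POLA3 (AT5G41880), a subunit of the DNA primase, stood at 5.44 and 5.68 in the ML1Y libraries and 7.89 and 10.11 in the MG libraries. Both MG libraries were the higher ones (log2 difference 3.44 ± 0.65, adjusted p = 0.0146), though the call was lost without MG replicate 2 (2.33, adjusted p = 0.121), without either ML1Y library, and in the fit of the 4 libraries alone. PCNA1, the sliding clamp of the replication fork, read 7.48 and 6.90 in MG against 4.16 and 5.08 in ML1Y (log2 difference 2.57 ± 0.67, adjusted p = 0.0798). The helicase subunits MCM4, MCM2 and MCM7 had differences of 1.54, 1.59 and 1.84 and did not pass. TOPII (AT3G23890), topoisomerase II, passed outside the lists, with 7.67 and 7.84 in the ML1Y libraries and 11.50 and 10.63 in the MG libraries. It passed (log2 difference 3.31 ± 0.72, adjusted p = 0.0314) but did not keep the call in any of the 4 fits that left out 1 library.

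None of the 26 mitotic genes passed, with 19 above 0 and a median of 0.40. CDKB2;1, a plant-specific kinase of the G2 to M transition, came closest, at 8.53 and 7.81 in MG against 5.72 and 5.60 in ML1Y (log2 difference 2.51 ± 0.68, adjusted p = 0.0957). KN (KNOLLE), the syntaxin of the forming cell plate, read 8.64 and 8.70 in MG against 6.82 and 6.64 in ML1Y, with even replicates (adjusted p = 0.19). Among the 31 regulators of G1, none passed and the median was 0.28. CYCD7;1, a D-type cyclin of the guard mother cell, stood at 7.78 in MG replicate 1 and 5.31 in MG replicate 2, both above ML1Y (log2 difference 2.04 ± 0.69, adjusted p = 0.207).

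The kinesin, histone and tubulin families, each taken whole and not by a role in division, had larger medians, and 1 histone gene passed. Among 28 kinesins, 23 were above 0 with a median of 1.51 and none passed. POK1, a kinesin that positions the division plane, read 10.54 and 9.37 in MG against 7.20 and 7.20 in ML1Y (log2 difference 2.75 ± 0.75, adjusted p = 0.0977), and ATK3, a minus-end kinesin of the spindle, read 9.70 and 11.57 in MG against 7.72 and 7.42 in ML1Y (log2 difference 3.06 ± 0.84, adjusted p = 0.0991). Of 48 histone genes, 42 were above 0 with a median of 1.12. The histone gene that passed was AT1G07820 (6.23 and 4.94 in the ML1Y libraries and 9.54 and 9.77 in the MG libraries; log2 difference 4.07 ± 0.71, adjusted p = 0.00998). It lost the call without MG replicate 2 (3.95, adjusted p = 0.0886) and without ML1Y replicate 2 (3.42, adjusted p = 0.203). Histone genes are near-identical copies, so reads may have been split between them in a way the files do not show. H2AXA had 7.61 and 7.93 in MG against 5.31 and 5.30 in ML1Y (adjusted p = 0.0762). The tubulins had 14 of 15 above 0, a median of 0.83 and no call.

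These medians differed between the MG libraries. Set against the mean of the ML1Y libraries, the mitotic list had a median of 0.93 in MG replicate 1 and 0.01 in MG replicate 2, and the replication list 0.71 and 0.02. Kinesins stood at 1.76 and 0.86 and histones at 1.40 and 0.70. Over all 28048 genes the same medians were 0.01 and -0.01. Members above the ML1Y mean in MG replicates 1 and 2 numbered 17 and 10 of 19 in the replication list. They numbered 22 and 13 of 26 in the mitotic list, 24 and 16 of 28 for kinesins and 41 and 38 of 48 for histones. Over all genes they numbered 14094 and 13934. The plot of list medians by library shows the same order, with MG replicate 1 the higher of the pair in each plotted list whose median was above 0.

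**Figure D3:**
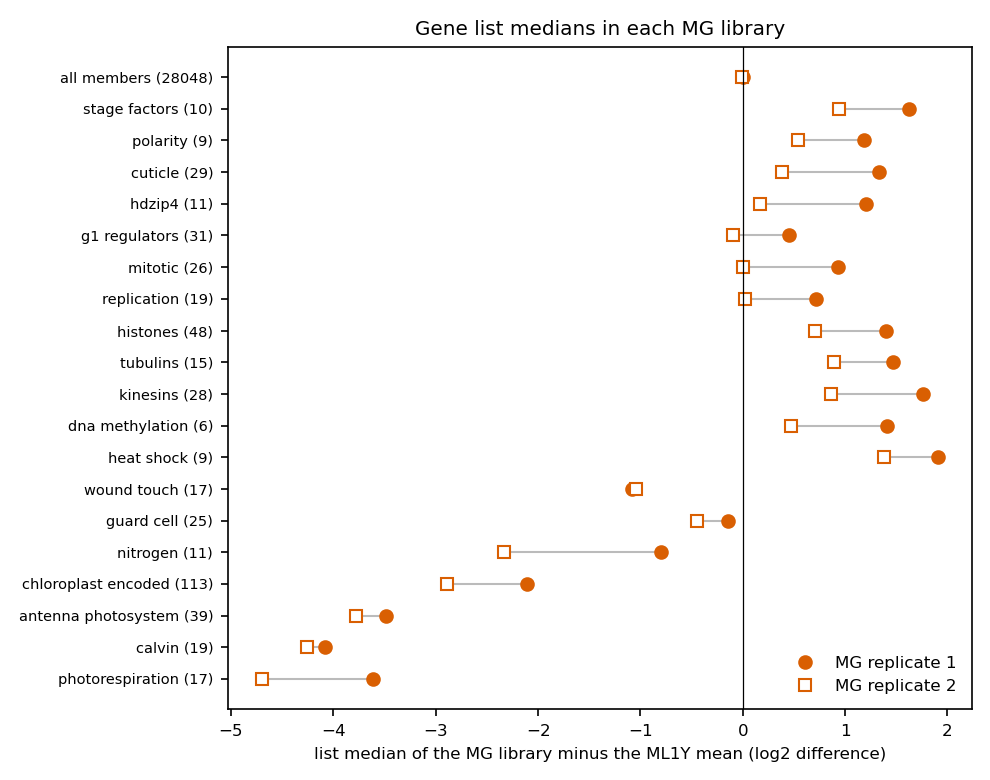
Median over each gene list of the level in 1 MG library minus the mean of the ML1Y libraries (log2, x axis), with MG replicate 1 filled and replicate 2 open and the number of genes in parentheses. Lists of division and cuticle lie nearer 0 in replicate 2, while the antenna, Calvin cycle and photorespiration lists lie at -3.48 or lower in both.

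Among genes of the cuticle and epidermis, 1 of 29 passed, and 25 were above 0 with a median of 0.89. CYP86A8 (AT2G45970), known as LACERATA, a fatty acid hydroxylase of cutin synthesis, stood at 6.52 and 5.65 in the ML1Y libraries and 9.13 and 10.96 in the MG libraries. It was 15.5-fold higher in MG, without overlap (log2 difference 3.96 ± 0.67, adjusted p = 0.00785). The call was lost without MG replicate 2 (3.04, adjusted p = 0.0802), without ML1Y replicate 2 (3.53, adjusted p = 0.157) and in the fit of the 4 libraries alone (adjusted p = 0.0544). GPAT4, an acyltransferase of cutin synthesis, had close replicates, at 10.49 and 10.55 in MG against 7.90 and 7.55 in ML1Y (log2 difference 2.80 ± 0.73, adjusted p = 0.0784). CER5, a wax exporter, read 13.49 and 11.75 in MG against 9.61 and 9.15 in ML1Y (log2 difference 3.24 ± 0.89, adjusted p = 0.0997). CER2, of wax elongation, was high in MG replicate 1 only (10.90 and 6.22 in MG against 6.46 and 6.23 in ML1Y). The 11 HD-ZIP class IV factors, which give the epidermis its identity, held no call and had a median of 0.51. ATML1, behind the promoter of the epidermis line, read 8.48 and 8.46 in the ML1Y libraries and 9.68 and 9.16 in the MG libraries (log2 difference 0.94 ± 1.02, adjusted p = 0.922).

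The 21 higher genes with a symbol spanned several other roles, and each of them but EPF1 lost its call when at least 1 library was left out. NIP1;2, a channel of the aquaporin family, had one of the highest levels, with 9.26 and 8.51 in the ML1Y libraries and 11.72 and 13.09 in the MG libraries (log2 difference 3.52 ± 0.80, adjusted p = 0.0398). SWEET16, a sugar transporter of the vacuole, read 5.49 and 5.72 in the ML1Y libraries and 8.27 and 8.80 in the MG libraries (log2 difference 2.94 ± 0.65, adjusted p = 0.0332), and none of the other 13 SWEET genes measured passed. XTH16, an enzyme that cuts and rejoins xyloglucan in the wall, read 5.76 and 5.37 in the ML1Y libraries and 8.53 and 8.05 in the MG libraries (log2 difference 2.72 ± 0.59, adjusted p = 0.0315). Its family moved both ways: of 29 members, XTH16 rose and XTH18 (-4.09 ± 0.59) and XTH4 (-2.36 ± 0.46) fell. The SWEET and XTH families were listed after the called genes were seen.

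Several transcription and chromatin genes were also among the higher ones. RPL (AT5G02030), a homeodomain factor known from the shoot and fruit, read 6.38 and 6.70 in the ML1Y libraries and 8.74 and 9.40 in the MG libraries (log2 difference 2.53 ± 0.60, adjusted p = 0.0497). NF-YA3, a subunit of the CCAAT-binding factor, read 7.96 and 10.13 in MG against 5.64 and 5.88 in ML1Y (log2 difference 3.29 ± 0.72, adjusted p = 0.0315). GATA10 and NAC089, members of zinc finger and NAC factor families, differed by 3.37 ± 0.78 and 2.50 ± 0.58 (adjusted p = 0.0452 and 0.0448). RING1B, a subunit of Polycomb repressive complex 1, read 9.33 and 10.92 in MG against 7.19 and 6.55 in ML1Y (log2 difference 3.26 ± 0.77, adjusted p = 0.0479). It was above both ML1Y libraries in both MG libraries. The Polycomb list of 8 genes held no call, with a median of 0.16. SAHH2, an S-adenosylhomocysteine hydrolase that serves methylation reactions, read 9.49 and 11.34 in MG against 7.17 and 7.10 in ML1Y (log2 difference 3.27 ± 0.77, adjusted p = 0.0473). The 6 DNA methylation genes held no call, and DME, a DNA demethylase, had the smallest p of them (log2 difference 2.21 ± 0.82, adjusted p = 0.283).

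The remaining higher genes with a symbol were MEE69, PHB6, OZF2, UBP21, ABCI17 and DI21. OZF2, a CCCH zinc finger protein, had close replicates in both groups, at 9.31 and 9.45 in MG against 6.29 and 6.32 in ML1Y (log2 difference 3.08 ± 0.67, adjusted p = 0.0308). DI21, a gene named for induction by drought, read 7.65 and 7.56 in MG against 5.51 and 5.24 in ML1Y (log2 difference 2.23 ± 0.46, adjusted p = 0.0235). Among the higher genes without a symbol, AT4G29020, which encodes a glycine-rich protein, stood at 6.65 and 6.45 in the ML1Y libraries and 10.60 and 11.88 in the MG libraries (log2 difference 4.69 ± 0.77, adjusted p = 0.00709). AT1G59660, annotated as a nucleoporin autopeptidase, reached the highest level of the 56, at 12.37 and 13.50 in MG against 9.55 and 9.80 in ML1Y (log2 difference 3.26 ± 0.77, adjusted p = 0.0498).

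The lists of photosystems, Calvin cycle, photorespiration, chlorophyll synthesis, carbonic anhydrases, plastid ribosomes and nitrogen assimilation together held 56 of the 426 lower genes. In the list of antenna and photosystem genes, 22 of 39 fell and none rose, all 39 were below 0, and the median was -3.62. LHB1B1, an antenna protein of photosystem II, fell the most of the list, with 13.08 and 13.57 in the ML1Y libraries and 7.73 and 6.12 in the MG libraries (log2 difference -6.40 ± 0.72, adjusted p = 0.0013). Both ML1Y libraries lay far above both MG libraries. PSBO2, of the oxygen-evolving complex, read 9.90 and 9.65 in the ML1Y libraries and 5.57 and 5.09 in the MG libraries (log2 difference -4.44 ± 0.65, adjusted p = 0.00419), and PSAE-1, a stromal subunit of photosystem I, read 11.06 and 11.27 in the ML1Y libraries and 7.10 and 5.71 in the MG libraries (log2 difference -4.76 ± 0.71, adjusted p = 0.00451). PETC, the Rieske protein of the cytochrome complex, differed by -4.91 ± 0.78, and PETE1, a plastocyanin, by -3.88 ± 0.64. The members that did not pass still had large differences, such as -3.45 ± 0.85 in PSBR and -3.02 ± 0.78 in ATPC1, a subunit of the chloroplast ATP synthase. The smallest difference of the 39 was -1.73, in FNR1. The count of fallen genes was 18 without MG replicate 1, 4 without MG replicate 2, 10 without ML1Y replicate 1 and 1 without ML1Y replicate 2. Antenna genes of the LHCB1 group and the RBCS genes are near-identical copies, and how reads were shared among them is not known.

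Of 19 Calvin cycle genes, 12 fell, with a median of -4.11. FBA1, a chloroplast aldolase, read 11.26 and 11.98 in the ML1Y libraries and 6.10 and 5.63 in the MG libraries (log2 difference -5.76 ± 0.63, adjusted p = 0.000988) and stayed called whichever library was left out. HCEF1, the chloroplast fructose bisphosphatase, read 9.56 and 9.81 in the ML1Y libraries and 4.54 and 5.09 in the MG libraries (log2 difference -4.87 ± 0.66, adjusted p = 0.00293). RCA, the activase of Rubisco, stood at 10.38 and 10.09 in MG against 15.75 and 15.84 in ML1Y (log2 difference -5.56 ± 0.83, adjusted p = 0.00451). Both were separated from ML1Y by more than the spread of either group. Genes of the same cycle that did not pass were RPE (-3.54 ± 0.84), PRK (-3.02 ± 0.89), PGK1, TKL1, TIM and both CP12 genes measured. CP12-2, a regulator of the cycle, was the single member above 0 (0.20 ± 0.57). With 1 library left out, between 2 (without ML1Y replicate 2) and 9 (without MG replicate 1) of the 19 passed.

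Photorespiration, which recovers the product of Rubisco's oxygenation through peroxisome and mitochondrion, had the largest share of calls of these lists: 13 of 17 fell, with a median of -4.02. GOX1, a glycolate oxidase of the peroxisome, had the largest difference of all called genes, at 14.40 and 14.81 in the ML1Y libraries and 7.40 and 7.23 in the MG libraries (log2 difference -7.29 ± 0.76, adjusted p = 0.000988). Its paralogue GOX2 read 12.18 and 12.33 in the ML1Y libraries and 6.84 and 6.37 in the MG libraries (log2 difference -5.65 ± 0.74, adjusted p = 0.00254). Both kept the call whichever library was left out, as did HPR, the hydroxypyruvate reductase, and GGT1 (AT1G23310), the glutamate:glyoxylate aminotransferase. PLGG1, the glycolate and glycerate transporter of the chloroplast, read 5.27 and 4.91 in MG against 8.53 and 9.12 in ML1Y (log2 difference -3.73 ± 0.53, adjusted p = 0.00365). SHM1, the mitochondrial hydroxymethyltransferase, differed by -4.50 ± 0.78, and PGLP1, the first enzyme of the pathway, by -4.58 ± 0.81. The 4 that did not pass were GLU1 (-3.52 ± 0.88), GDCH (-2.98 ± 0.83), GS2 (-2.79 ± 0.94) and the glycerate kinase gene AT1G80380 (-0.25 ± 0.94). The last was close to 0, and with 1 library left out between 4 and 13 of the 17 passed. PEX11D, a peroxisome proliferation protein outside the list, fell with them (log2 difference -6.29 ± 0.67, adjusted p = 0.000988).

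**Figure D4:**
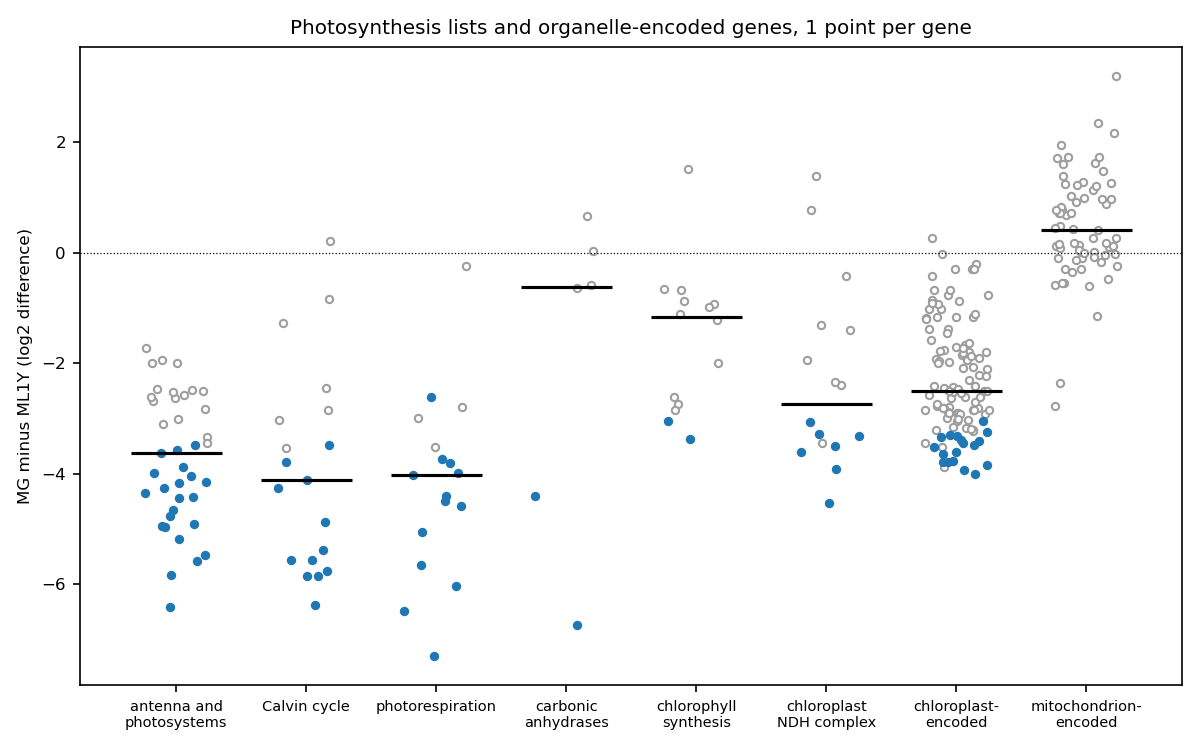
MG minus ML1Y log2 difference (y axis) of each gene in 8 lists (x axis), with filled points for genes that passed and a bar at each median. The antenna and photorespiration lists lie wholly below 0, and the mitochondrion-encoded genes lie around their median of 0.41.

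The machinery around the photosystems moved less evenly. Of 14 chlorophyll synthesis genes, 2 fell, with a median of -1.16. They were CHLG, the chlorophyll synthase (log2 difference -3.36 ± 0.53, adjusted p = 0.00553), and CHLI1, a subunit of magnesium chelatase (7.84 and 6.33 in MG against 10.02 and 10.24 in ML1Y; log2 difference -3.05 ± 0.71, adjusted p = 0.0465). The single member above 0 was PORA, a protochlorophyllide oxidoreductase (log2 difference 1.51 ± 0.66, adjusted p = 0.417). For the chloroplast NDH complex, which cycles electrons around photosystem I, 7 of 16 genes fell, with a median of -2.73. NdhM read 7.60 and 8.05 in the ML1Y libraries and 3.18 and 3.41 in the MG libraries and had the smallest p of that list (log2 difference -4.53 ± 0.42, adjusted p = 0.000734). For the HCF genes, assembly factors named for high chlorophyll fluorescence, 5 of 12 fell, with a median of -1.92, among them HCF136 (-3.90 ± 0.65) and HCF244 (-3.30 ± 0.55), which build photosystem II. The NDH and HCF lists were drawn up after the called genes were seen. Without ML1Y replicate 2 the counts were 2 for NDH and 0 for HCF.

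Transcripts of the chloroplast genome were lower as well. Of 113 genes with a chloroplast locus code, 18 fell, 112 were below 0, and the median was -2.50. ATCG00270 stood at 18.70 and 18.80 in the ML1Y libraries and 15.65 and 14.15 in the MG libraries (log2 difference -3.85 ± 0.69, adjusted p = 0.0113), and ATCG00790, at 16.78 and 15.34 in MG against 18.99 and 19.23 in ML1Y, had the highest level of any lower gene (log2 difference -3.05 ± 0.59, adjusted p = 0.0169). Libraries went through oligo-dT beads, which select by poly(A) tails. The count fell to 2 without MG replicate 2, to 1 without ML1Y replicate 1 and to 0 without ML1Y replicate 2. In contrast, none of 67 mitochondrion-encoded genes passed, and 47 were above 0 with a median of 0.41. Nuclear genes for plastid ribosomal proteins fell in 4 of 9 cases, with a median of -2.41, as PSRP5 did (6.99 and 5.14 in MG against 9.33 and 9.61 in ML1Y; log2 difference -3.40 ± 0.76, adjusted p = 0.0351). None of these 9 passed without MG replicate 2, without ML1Y replicate 2 or in the fit of the 4 libraries alone.

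Other metabolism of green tissue was lower in single genes. The carbonic anhydrases CA2 and CA1, abundant in leaves, read 15.64 and 15.48 in the ML1Y libraries and 8.91 and 8.74 in the MG libraries for CA2 (log2 difference -6.73 ± 0.78, adjusted p = 0.00138) and 14.78 and 14.87 in the ML1Y libraries and 10.63 and 10.21 in the MG libraries for CA1 (log2 difference -4.41 ± 0.83, adjusted p = 0.0145). The other 4 members of that family lay between -0.65 in BCA6 and 0.66 in BCA4 and did not pass. In nitrogen assimilation 1 of 11 genes fell, with a median of -1.56. ASN1, an asparagine synthetase induced in the dark, read 15.99 and 14.55 in the ML1Y libraries and 10.69 and 10.77 in the MG libraries (log2 difference -4.54 ± 0.76, adjusted p = 0.00764). It lost the call without MG replicate 2 (-4.58, adjusted p = 0.0614) and without either ML1Y library. NIA2, the main nitrate reductase, missed the threshold narrowly (8.70 and 9.26 in MG against 12.88 and 11.95 in ML1Y; log2 difference -3.44 ± 0.82, adjusted p = 0.0501).

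Water channels fell in 2 of 36 cases beside the rise of NIP1;2. PIP1C, of the plasma membrane, read 10.27 and 10.67 in the ML1Y libraries and 5.81 and 5.62 in the MG libraries (log2 difference -4.76 ± 0.73, adjusted p = 0.00475), and PIP2B also fell (log2 difference -3.00 ± 0.56, adjusted p = 0.0131). No water channel was called, in either direction, without MG replicate 2 or without ML1Y replicate 2. Families seen among the called genes were then counted in full. Of 100 genes annotated with a TIR domain, as in many immune receptors, 8 fell, with a median of -0.37. WRR4, known for resistance to white rust, read 10.79 and 11.15 in the ML1Y libraries and 6.88 and 6.19 in the MG libraries (log2 difference -4.43 ± 0.67, adjusted p = 0.00451), and RLM3 read 6.04 and 6.54 in MG against 9.99 and 11.10 in ML1Y (log2 difference -4.26 ± 0.64, adjusted p = 0.00451). RPP1, known for resistance to downy mildew, also fell (-3.14 ± 0.67). Of 22 B-box zinc finger genes, 4 fell, with a median of -0.61. They were BBX14 (-3.95 ± 0.61), BBX27 (-3.97 ± 0.67), BBX16 (-3.23 ± 0.56) and COL1 (-3.39 ± 0.62). TIR genes and the B-box family hold close copies, and their counts without ML1Y replicate 2 were 0.

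In all, 103 of the 426 lower genes belonged to one of the lists, and 222 had a symbol. Outside the lists, several of the largest differences were in plastid proteins. THI1, of thiamine synthesis in the chloroplast, read 6.59 and 5.76 in MG against 12.03 and 12.45 in ML1Y (log2 difference -6.07 ± 0.71, adjusted p = 0.00139), and PTAC16, of the plastid nucleoid, read 6.53 and 5.64 in MG against 10.55 and 11.62 in ML1Y (adjusted p = 0.0041). PSBQA, of the oxygen-evolving complex, also fell (log2 difference -5.23 ± 0.77, adjusted p = 0.00422). PP2-A5, a lectin related to a phloem protein, read 11.45 and 10.69 in the ML1Y libraries and 6.16 and 5.17 in the MG libraries (log2 difference -5.41 ± 0.67, adjusted p = 0.00164). It kept the call whichever library was left out, as did CWLP, a protein linking wall and plasma membrane (log2 difference -4.13 ± 0.57, adjusted p = 0.00337), SVL2 (log2 difference -4.52 ± 0.54, adjusted p = 0.00164) and NEET, an iron-sulfur protein (log2 difference -4.30 ± 0.53, adjusted p = 0.00164).

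The mesophyll markers moved with this lower side. Their summed level, over 7 genes that are themselves photosynthesis genes, was 18.15 and 18.48 in the ML1Y libraries and 13.73 and 13.27 in the MG libraries on the log2 scale. All 7 were above the filter in all 4 libraries. The 5 epidermis markers were also present throughout, at 11.18 and 11.43 in ML1Y and 13.24 and 12.34 in MG. Their sums were 11.76 to 13.37 in SSY, 12.34 to 12.86 in FGF and 12.88 to 12.97 in E1728G. The epidermis sort ML1Y thus had the lowest epidermis sums of the series and the highest mesophyll sums. The part of mesophyll cells or of their RNA in the lower calls was not tested. In sorted bulk samples, fewer cells of a type and less RNA per cell cannot be told apart.

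The lower genes were set beside the other stages. Their median level was 8.37 in ML1Y and 5.21 in MG, beside 5.28 in SSY, 5.37 in FGF and 5.40 for E1728G. In 417 of the 426, ML1Y had the highest mean of the 5 groups. MG had the lowest mean in 120. The ML1Y and MG libraries chose these genes, so this order was in part fixed by the choice. The summed mesophyll markers were also highest in ML1Y and overlapped or lay close together in the other groups, with 13.81 to 14.77 in SSY, 13.67 to 13.73 in FGF and 14.02 to 14.49 in E1728G. GOX1 in MG did not pass against SSY (0.49 ± 0.69, adjusted p = 0.741), FGF (-0.67 ± 0.76, adjusted p = 1) or E1728G (-1.02 ± 0.76, adjusted p = 0.791). LHCA4 and CA2 did not pass in any of these 3 comparisons either. ASN1 was higher in MG than in SSY (4.02 ± 0.70, adjusted p = 0.0141) and did not pass against FGF or E1728G.

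Higher genes showed another order. Their median level was 8.76 in MG and between 5.28 and 5.90 in the 4 other groups, and in 55 of the 56 MG had the highest mean of the 5. These comparisons share the MG libraries that chose the genes. Of the 56, 14 also passed against each of the 3 other stages, 5 of them with a symbol: EPF1, MUTE, CYP86A8, POLA3 and SAHH2. EPF1 averaged 7.86 ± 0.26 (SD, n = 2) at the MUTE stage, 4.37 ± 0.25 (n = 3) in SSY, 4.57 ± 0.71 (n = 2) in FGF, and 4.18 ± 1.33 (n = 2) in the mature stomata of E1728G. CYP86A8 averaged 10.04 ± 1.29 in MG (SD, n = 2) and between 5.40 and 6.08 in the 4 other groups. SDD1 passed against E1728G (adjusted p = 0.0478) but not against SSY (3.38 ± 0.96, adjusted p = 0.0816) or FGF (3.68 ± 1.05, adjusted p = 0.221). Some other higher genes were close to MG in another group. TOPII averaged 11.07 in MG and 10.37 in SSY (0.70 ± 0.66, adjusted p = 0.602). AT1G59660 averaged 12.94 in MG and 11.77 in SSY (1.17 ± 0.71, adjusted p = 0.409). In E1728G, NIP1;2 averaged 11.28 and RING1B 9.16, and neither passed against MG (adjusted p = 0.768 and 0.822).

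**Figure D5:**
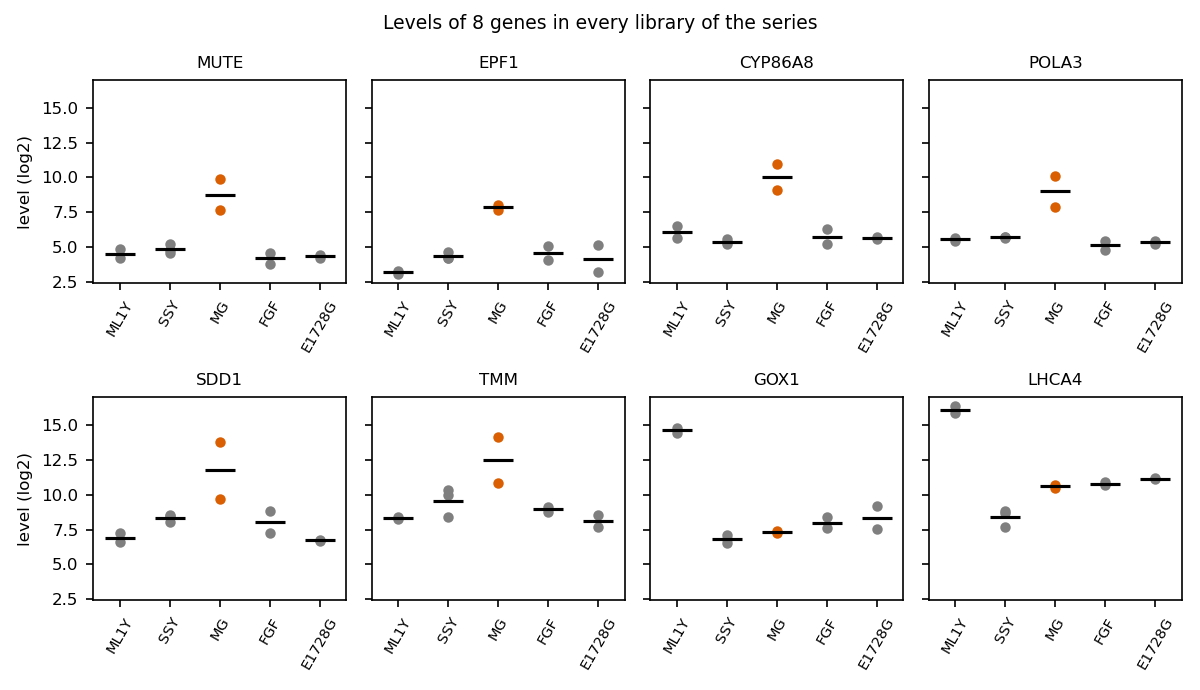
Levels (log2, y axis) of 8 genes in every library of the 5 groups (x axis), with MG in orange and a bar at each group mean. MUTE, EPF1, CYP86A8 and POLA3 are highest in both MG libraries, and GOX1 and LHCA4 are highest in both ML1Y libraries and lower in the 4 other groups.

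Markers of other cells and of handling were read in the same fit. The 25 guard cell genes held no call, with 10 above 0 and a median of -0.34. The summed level of the 7 guard cell markers was 16.99 and 16.72 in ML1Y and 17.28 and 16.99 in MG, and 19.99 to 20.85 in FGF and E1728G. The SSY libraries lay at 18.64 to 20.71. In every library nearly all of the sum came from TGG1, a myrosinase, and without it the sums were 9.69 and 9.72 in ML1Y, 10.38 and 10.02 in MG, 10.21 to 10.83 in SSY and 11.80 to 12.69 in FGF and E1728G. KAT1, a potassium channel of guard cells, read 6.69 and 5.88 in MG against 5.45 and 4.41 in ML1Y (adjusted p = 0.59). Of 10 vascular genes 1 fell, XCP2, a protease of xylem cells (log2 difference -2.23 ± 0.49, adjusted p = 0.0326). It did not pass in any fit that left out 1 library, with quantile normalization or with the 4 libraries alone. XCP2 also did not pass without the filter on low values, without the mean trend or with the replicate block. None of 12 trichome and 10 meristem and primordium genes passed, with medians of 0.24 and -0.33.

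Heat shock genes, read as markers of handling, were above 0 in 9 of 9 cases with a median of 1.41, and none passed. HSP101, a chaperone that dissolves aggregates, read 14.84 and 15.25 in the ML1Y libraries and 17.58 and 17.00 in the MG libraries (log2 difference 2.25 ± 0.77, adjusted p = 0.213). Both MG libraries were above both ML1Y libraries in all 9, which was so for 6220 of the 28048 genes. The median level of these 9 genes was 12.96 in ML1Y and 14.18 in MG, beside 14.09 in SSY, 14.87 in FGF and 13.86 in E1728G. Among 17 wound and touch genes 14 were below 0, with a median of -0.97 and no call, and TCH3, a calmodulin-like protein, read 11.16 and 10.35 in MG against 12.88 and 12.60 in ML1Y (adjusted p = 0.377). The part of handling in the calls was not tested.

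Hormone lists held no call. The 10 cytokinin genes had a median of -0.09, the 13 auxin genes -0.26 and the 10 brassinosteroid genes 0.23. ARR7 and ARR15, type-A response regulators that cytokinin induces, read 4.33 and 4.80 in MG against 6.78 and 6.73 in ML1Y for ARR7 and 2.72 and 3.41 in MG against 4.01 and 5.70 in ML1Y for ARR15 (adjusted p = 0.281 and 0.186). PID, a kinase that directs auxin carriers, read 8.00 and 8.16 in MG against 5.87 and 6.65 in ML1Y (adjusted p = 0.341). Aux/IAA genes (24) and expansins (28) had medians of -0.11 and 0.25 with none called.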

How the data were processed

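Expression was measured by RNA sequencing, per the labels' titles; the description field names microarrays instead. The authors deposited log2 values, normalized over 11 libraries, in a table of 33602 genes. Bowtie2, DESeq2 and the TAIR10 build are named in the submitters' processing notes. For the counter, annotation and transformation, details were not given in the sources used here, and the base of 2 was read from the tool named and the size of the values. Depth is unknown, so no counting interval is given. The design foresaw linear values, and the deposited logarithms were used as they are.

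Genes at log2 of 10 (rounded to 2 decimals) or more in at least 2 of the 11 libraries were tested (29853). Of these, 28048 reached it in at least 2 of the 4 MG and ML1Y libraries, and 25239 in all 4. In 219 genes both MG libraries and no ML1Y library reached it, and in 275 the reverse held. The 2 genes that lacked a value in at least 1 library were left out. limma-trend (limma 3.58.1, R 4.3.3) was fitted to all 11 libraries with 1 mean per group, and p-values were adjusted by Benjamini-Hochberg over all genes tested, two-sided, at 0.05. Each difference has the fit's standard error beside it. With 2 libraries against 2, an exact permutation test cannot go below 0.333. The fit was tested on simulated data.

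Named genes are the marker line genes, up to 25 called genes in each direction with the largest difference, a symbol and, in the higher group, at least the median level, the 5 with the highest level in each direction, and in each list the called members or those with the smallest p. CWLP, SVL2 and NEET were chosen after their values were seen, from the 28 genes that stayed called in every leave-one-out fit. The members and lists were chosen with earlier results of these data known, and the NDH, HCF, B-box, TIR, XTH and SWEET lists after the called genes were seen, so no list was tested as a set. RefSeq names (TAIR10.1) matched 32835 genes, 10654 with a symbol; that build differs by name from the authors', so no coordinates or sequences are printed. Promoter motifs were not computed. Alternatives covered normalization, filters, an added 1, the variance model, the libraries in the fit, a replicate block and each library left out.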

Additional observations from a re-analysis of the deposited data

Results flagged for a closer look

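Of the 56 genes higher in MG than in ML1Y, 14 also passed against each of the 3 other stages in the same limma fit, with p-values adjusted over all genes tested. These comparisons share the MG libraries that chose the genes. The 4 of them that belong to the gene lists are given here. EPF1 was higher in MG by 3.49 than in SSY, by 3.29 than in FGF and by 3.68 than in E1728G on the log2 scale (adjusted p = 0.00925, 0.0391 and 0.0129). MUTE was higher by 3.89, 4.57 and 4.41 in the same order (adjusted p = 0.00872, 0.0239 and 0.0100). CYP86A8 was higher by 4.64, 4.29 and 4.41 (adjusted p = 0.00511, 0.0253 and 0.0113), and POLA3 by 3.29, 3.86 and 3.64 (adjusted p = 0.0160, 0.0301 and 0.0236). For all 4 genes both MG libraries lay above all libraries of the other stages. Quantile normalization ended 5 of these 12 differences, all 4 genes against FGF (adjusted p = 0.101 for EPF1, 0.0537 for MUTE and CYP86A8, and 0.0946 for POLA3) and POLA3 against E1728G (0.0577). Without the mean trend, EPF1 against FGF no longer passed (adjusted p = 0.0727). Without MG replicate 2, 11 of the 12 differences no longer passed and the exception was CYP86A8 against SSY (3.73, adjusted p = 0.0439). Without MG replicate 1, 11 passed and the exception was EPF1 against FGF (3.10, adjusted p = 0.0858). Outside the lists, SAHH2 was higher than in SSY, FGF and E1728G by 3.43, 4.37 and 4.33 (adjusted p = 0.0247, 0.0391 and 0.0231), and AT4G29020 by 3.99, 4.62 and 5.62 (adjusted p = 0.0146, 0.0301 and 0.00854).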

How the results depend on the processing

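The counts of 56 higher and 426 lower genes stayed within 1.5 times under value plus 1, filters, no mean trend, robust variances, members alone and the 4 libraries alone. Quantile normalization gave 32 higher genes, and the fit without the SSY libraries 99. With 1 library left out, the counts ran from 1 to 302 higher and from 35 to 321 lower genes. They were 302 and 321 without MG replicate 1, 28 and 71 without MG replicate 2, 7 and 136 without ML1Y replicate 1, and 1 and 35 without ML1Y replicate 2. In such fits the lone library of a group is assumed to vary like the other groups. The cause of these shifts was not tested. No called gene changed sign in any alternative, and 1 of the 56 higher and 27 of the 426 lower genes passed in all 4 leave-one-out fits. Among the 158 genes recomputed one by one (called list members, genes of the naming rule and all lineage genes), 8 changed sign and none of these was called: CLE10 (-0.34 to 0.89 over the leave-one-out fits), SERK1 (-0.39 to 0.96), AGL16 (-0.46 to 1.01), SPCH (-0.59 to 0.98), SERK2 (-1.12 to 1.74), CHAL (-0.20 to 0.29), ER (-1.05 to 0.048) and EPFL5 (-0.33 to 0.79).

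The labels do not say whether libraries with the same replicate number were handled together. Deviations from the group means correlated at 0.02 between MG and ML1Y, which with 2 libraries per group cannot settle it. The replicate block gave 60 higher and 392 lower genes. Under it 1 stage difference of each of EPF1 (3.29), CYP86A8 (4.29), MUTE (4.57) and POLA3 (3.86), all against FGF, no longer passed.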

Other observations

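Some genes differed between the MG libraries far more than between the groups. Of the 15 genes with a symbol and the widest gap, 13 were higher in MG replicate 2, and none was called. IPT5, a cytokinin synthesis enzyme, stood at 5.59 in MG replicate 1 and 12.40 in MG replicate 2, with 5.75 and 5.95 in ML1Y. CRF3, a cytokinin response factor, stood at 5.64 and 11.02 in the MG libraries, and QKY, a membrane-anchored C2 domain protein, at 7.73 and 13.09. BAG7, a co-chaperone, went the other way, with 10.24 in MG replicate 2 and 4.86 log2 units more in MG replicate 1. Among all 28048 genes, 1009 were higher by more than 2 log2 units in MG replicate 1 and 809 in MG replicate 2.

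At the edge of the rule, the 3 genes just outside had a second highest value of 3.3177 to 3.3197 among the 4 libraries, and the 3 genes just inside of 3.3203 to 3.3204.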
